A study of Mus musculus with 8 samples.

Results

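The genes described here encode the vascular basement membrane and the receptors that hold cells to it. There are 32 of them: the collagen IV chains, laminins, nidogens, heparan sulfate proteoglycans, collagens XV and XVIII, Sparc, Smoc2, integrin alpha and beta subunits, dystroglycan (Dag1) and Bcam. They were chosen by name, out of 18194 genes with a probe set annotated to 1 symbol. Where a gene has several probe sets, the one with the highest mean on the 8 arrays represents it. Of the 32 genes, 30 were bright enough to test (a log2 value above 4 on at least 4 arrays), among 11446 tested genes in all.

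RNA was measured on 1-colour Affymetrix arrays in brain microvessels of mice at postnatal day 1. The vessels were pulled out of dissociated brain with magnetic beads against PECAM, an endothelial surface protein, and kept their pericytes. The 4 mutant arrays came from mice with the PDGFRb (D849V) knockin allele, described in the labels as a constitutively active receptor expressed in pericytes. The 4 control arrays came from wild type mice, and both groups were on a 129S/J mixed background and received no treatment named in the labels. Whether the allele was heterozygous, and whether a Cre line turned it on, is not given in the sources used here. Each array is labelled as a biological replicate, and the litter of each animal is not given in the sources used here.

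A basement membrane is a thin sheet of matrix that endothelial cells and pericytes build together and share. Laminin trimers and a collagen IV network are its main polymers. Nidogens and the proteoglycan perlecan link them, and agrin binds laminin. Cells hold on to the sheet through integrins, each a pair of an alpha and a beta subunit, and through dystroglycan, which binds laminin outside the cell and dystrophin inside it. In brain vessels the endothelial and mural sheet lies against a second one made with astrocyte endfeet.

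The arrays differed in ways that genotype does not describe. The bacterial dap and thr transcripts, spiked into the RNA before labelling, have probe sets at both ends, and the drop in log2 signal from the 3′ to the 5′ end was 1.27 to 2.26 on mutant arrays 1, 2 and 3 and control array 1, against 3.14 to 4.60 on mutant array 4 and control arrays 2, 3 and 4. The other 2 spiked transcripts, lys and phe, did not drop and split far less: the phe difference was -0.83 to -0.53 on the former arrays and -0.47 to -0.16 on the latter, and the lys difference was -0.95 or lower on the former and -0.94 to -0.29 on the latter. These array sets (shallow and steep spike-in gradient) were defined after the data had been seen and are named by no label. Each set holds both genotypes, but most mutant arrays are shallow and most control arrays steep, so set and genotype are partly aligned. Differences within each set are given for Col15a1 and Itga6 with their results and for other members after the receptors. Endothelial marker genes averaged 11.48 to 11.94 on the mutant arrays and 11.84 to 12.22 on the control arrays. This mean includes Pecam1, which followed the spike-in set, as given under the other observations. By limma's adjusted p, 1 of 12 was lower in the mutants. Differences lay below 0 in 11 of 12 and 5 had an unadjusted limma p under 0.05, with a median of -0.23. Over all tested genes 69.1% lay below 0, 20.6% had an unadjusted limma p under 0.05 and the median was -0.11. Among 15 tested microglia and macrophage markers 10 rose, with a median log2 difference of 1.84. Of 10 pericyte markers 2 passed, Pdgfrb lower (-1.01, limma adjusted p = 0.00132) and Higd1b higher (0.85, limma adjusted p = 0.041). The second tested probe set of Pdgfrb gave 0.09 with overlapping groups. None of 8 astrocyte, 8 fibroblast or 4 smooth muscle markers passed. The astrocyte markers varied within the mutant group, where their mean over 8 genes ran from 8.99 on mutant array 1 to 10.63 on mutant array 4. In bulk vessel RNA, fewer cells of a type and less RNA per cell cannot be told apart.

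Most basement membrane and integrin genes showed no detectable genotype difference on these arrays. None of the 30 tested members was higher in the mutants at a limma adjusted p under 0.05, and 1, Col15a1, was lower. Over all tested genes the share was 2.66% higher and 1.92% lower, or 4.58% in either direction. The median log2 difference (mutant minus control) was -0.02 over the members and -0.11 over all tested genes. The 95% confidence interval lay within a 1.5-fold change in either direction for 19 of 30 members (63.3%), against 56.7% of all tested genes. The other 11 members are not resolved to that limit. At an unadjusted p under 0.05 there were 4 members (13.3%), Hspg2, Col15a1, Itga4 and Itga6, all with lower values in the mutants, against 20.6% of all genes in either direction. The genotypes were fully separated in 2 of 30 members (6.67%), Col15a1 and Itga6, against 14.5% of all genes.

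**Figure D1:**
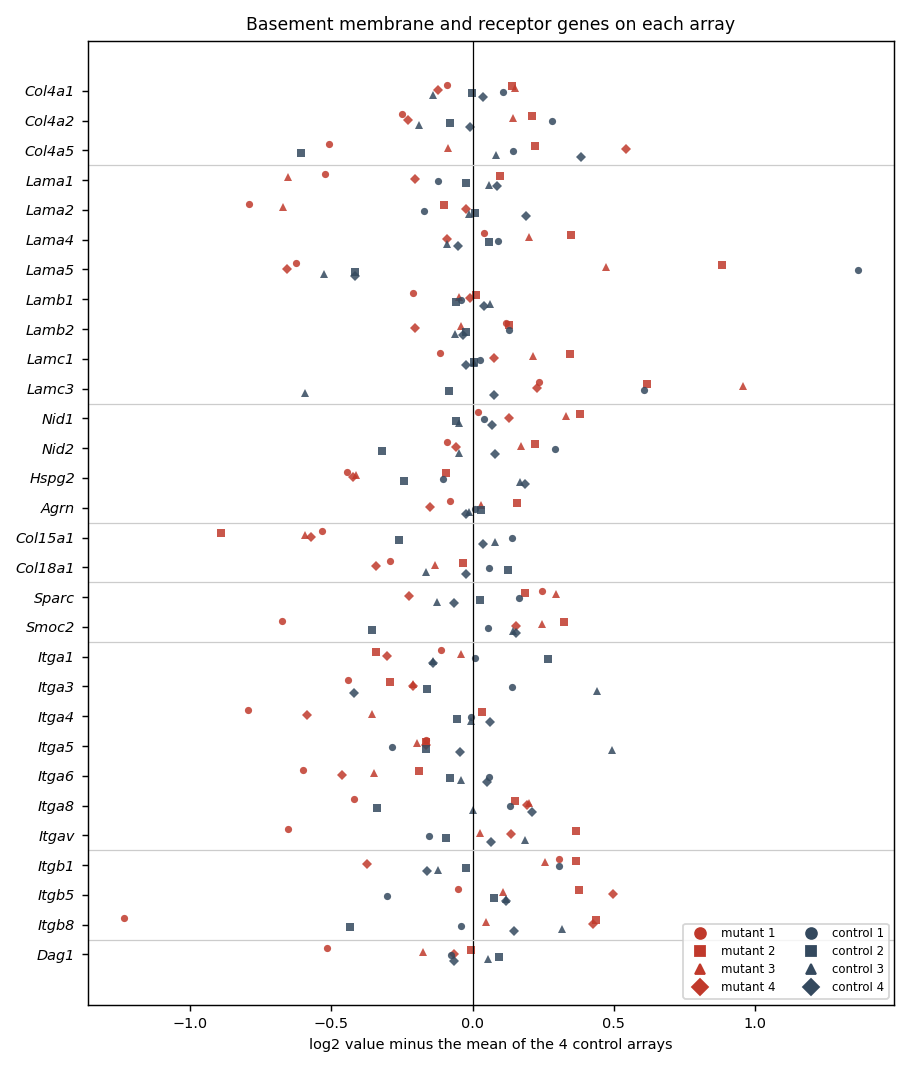
Log2 value of the 30 tested members on each of the 8 arrays, as the distance from the mean of the 4 control arrays; red points are mutant arrays, dark points control arrays, and the shape gives the replicate number. In Col15a1 and Itga6 every mutant point lies below every control point, and in the other tested members the groups overlap.

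**Figure D2:**
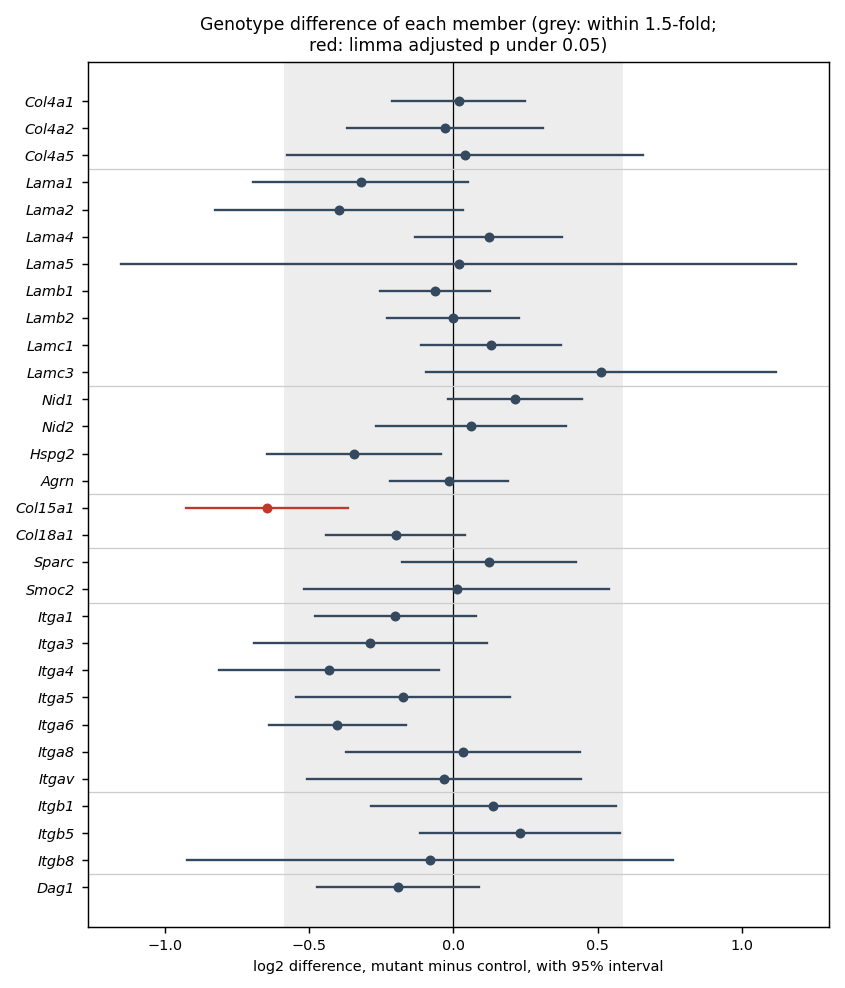
Log2 difference, mutant minus control, of the 30 tested members (points) with 95% intervals (lines), grouped by role; the grey band marks a 1.5-fold change in either direction. 19 of the 30 intervals lie inside the band, and Col15a1, in red, is the member with a limma adjusted p under 0.05.

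Collagen IV forms the network that gives the basement membrane its tensile strength, and the alpha1 and alpha2 chains make up its ubiquitous form. Col4a1 read 14.46, 14.69, 14.70 and 14.43 on mutant arrays 1 to 4 and 14.66, 14.55, 14.41 and 14.59 on control arrays 1 to 4. The groups overlapped across nearly their whole range. The means were 14.57 ± 0.14 and 14.55 ± 0.10 (SD, n = 4 each), a difference of 0.02 (95% interval -0.21 to 0.25, limma adjusted p = 0.936). Its partner chain Col4a2 read 13.15, 13.61, 13.54 and 13.17 in the mutants and 13.68, 13.32, 13.21 and 13.39 in the controls. The highest and the lowest of the 8 values belonged to control array 1 and mutant array 1, and the groups overlapped. The difference was -0.03 (95% interval -0.37 to 0.31, limma adjusted p = 0.93). Col4a5, a chain of the collagen IV networks with alpha3 to alpha6 chains, differed by 0.04 (95% interval -0.58 to 0.66), a range too wide to limit it to 1.5-fold.

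Col4a1 and Col4a2 run in opposite directions and their gene models overlap at the 5′ ends, so both promoter windows are shown. Windows run from 250 bases before to 50 after the start of a RefSeq gene model (GRCm38.p6), and each is written 5′ to 3′ along its own gene. The windows are chr8:11312777-11313076 on the minus strand for Col4a1 and chr8:11312555-11312854 on the plus strand for Col4a2. The starts are 21 bases apart, with that of Col4a2 (11312805) inside the Col4a1 model, which starts at 11312826. Capitals mark the 78 bases, chr8:11312777-11312854, that both windows contain, read on opposite strands.
Col4a1: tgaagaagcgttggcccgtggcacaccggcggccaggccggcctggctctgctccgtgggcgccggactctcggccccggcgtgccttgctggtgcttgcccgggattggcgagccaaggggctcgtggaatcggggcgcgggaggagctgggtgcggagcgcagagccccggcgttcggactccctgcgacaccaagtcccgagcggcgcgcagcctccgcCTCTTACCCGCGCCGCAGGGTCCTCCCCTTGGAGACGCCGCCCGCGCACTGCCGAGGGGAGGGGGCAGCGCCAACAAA
Col4a2: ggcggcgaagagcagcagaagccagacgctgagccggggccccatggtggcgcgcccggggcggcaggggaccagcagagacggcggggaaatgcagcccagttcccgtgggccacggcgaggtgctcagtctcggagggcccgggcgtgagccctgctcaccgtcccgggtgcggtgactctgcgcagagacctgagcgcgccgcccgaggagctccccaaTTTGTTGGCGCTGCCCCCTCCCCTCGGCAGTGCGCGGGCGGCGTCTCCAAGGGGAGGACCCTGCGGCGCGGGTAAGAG
The windows hold 37 and 33 CpG dinucleotides, against a median of 7 over 32851 RefSeq windows of the same length. Over the 8 arrays the paired genes moved together, with a Pearson r of 0.94 (exact permutation p = 0.00313, adjusted over 8 member pairs 0.0125) and a Spearman rho of 0.81 (exact permutation p = 0.0218, adjusted 0.0581). The pairs were chosen with the values known, and the permutation pools genotypes and spike-in sets, so these p-values are descriptive. Leaving out mutant array 4 and control array 3, the arrays farthest from the median of Col4a1, left r at 0.94. With genotype and spike-in set fitted out of both genes, r was 0.91. Among 11439 other tested genes Col4a2 ranked 3 by correlation with Col4a1.

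Laminins are trimers of an alpha, a beta and a gamma chain, and Lama4 and Lama5 encode the alpha chains of the endothelial forms. None of the 8 laminin members passed, with differences from -0.40 to 0.51 and a median of 0.01. Lama4 read 11.40, 11.71, 11.56 and 11.27 in the mutants and 11.45, 11.42, 11.27 and 11.31 in the controls. Mutant arrays 2 and 3 lay above all controls and mutant array 4 at the level of the lowest control. The difference was 0.12 (95% interval -0.13 to 0.38, limma adjusted p = 0.558), and averaging its probe sets turned the sign to -0.06. Lamb1, the common beta chain, read 10.56, 10.78, 10.72 and 10.76 in the mutants and 10.73, 10.71, 10.83 and 10.81 in the controls. Here only mutant array 1 lay below all controls. The difference was -0.06 (95% interval -0.25 to 0.13, limma adjusted p = 0.702), and the mean of its probe sets gave 0.13.

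The gamma chain Lamc1 differed by 0.13 (95% interval -0.11 to 0.37) and the beta chain Lamb2 by -0.00 (95% interval -0.23 to 0.23). Both intervals lay within a 1.5-fold change. Lama1 and Lama2, alpha chains known from the outer, parenchymal basement membrane of brain vessels, gave -0.32 (95% interval -0.69 to 0.05) and -0.40 (95% interval -0.83 to 0.03), and neither passed (limma adjusted p = 0.304 and 0.276). Lamc3 gave 0.51 (95% interval -0.10 to 1.12, limma adjusted p = 0.314). Its second tested probe set gave 0.855 with overlapping groups. With the spike-in set in the fit, these differences were 0.22 and 0.58. Lama5 was not resolved: it read 5.21, 6.72, 6.31 and 5.18 in the mutants and 7.20, 5.42, 5.31 and 5.42 in the controls. The arrays above 6 were mutant arrays 2 and 3 and control array 1, all of the shallow spike-in set. Mutant array 1, of the same set, read 5.21. The interval of Lama5 ran from -1.15 to 1.19. With the spike-in set in the fit its difference was -0.66 in place of 0.02.

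Nidogens bridge laminin and collagen IV. Nid1 read 12.96, 13.32, 13.27 and 13.07 in the mutants and 12.98, 12.88, 12.89 and 13.01 in the controls. Mutant arrays 2, 3 and 4 were above all controls and mutant array 1 lay among them. The difference was 0.21 (95% interval -0.02 to 0.45, limma adjusted p = 0.278), but its other tested probe sets gave -0.13 and -0.34. Array weights put 6.60 on mutant array 3 and 0.69 or less on the other mutant arrays. With them the Nid1 difference was 0.28 and passed (limma adjusted p = 0.0194). That fit called 895 genes higher and 2263 lower, against 304 and 220 without weights. Nid2 differed by 0.06 (95% interval -0.27 to 0.39).

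The proteoglycans carry heparan sulfate, which binds growth factors. Agrn (agrin) read 12.64, 12.88, 12.75 and 12.57 in the mutants and 12.73, 12.75, 12.71 and 12.70 in the controls. The mutants spread on both sides of a tight control group. The difference was -0.01 (95% interval -0.22 to 0.19, limma adjusted p = 0.946). Hspg2 (perlecan) gave -0.35 (95% interval -0.65 to -0.04) with an unadjusted p of 0.0299 and a limma adjusted p of 0.192. Mutant array 2, at 8.09, lay within the control range of 7.94 to 8.37, and the second probe set of the gene gave -0.03.

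Collagens XV and XVIII sit at the border of basement membrane and surrounding matrix, and both release anti-angiogenic fragments when cleaved. Col15a1 read 4.73, 4.37, 4.67 and 4.69 in the mutants and 5.40, 5.00, 5.34 and 5.30 in the controls. All mutant arrays lay below all control arrays. The means were 4.62 ± 0.17 and 5.26 ± 0.18 (SD, n = 4 each), so that Col15a1 was 1.57-fold lower in the mutants, with a log2 difference of -0.65 (SE 0.123, 95% interval -0.93 to -0.37, limma adjusted p = 0.0229). The difference was -0.81 within the shallow spike-in arrays and -0.53 within the steep ones, each set with a single array of 1 genotype and no test. The gene has 1 probe set here, and its values lie little above the filter of 4, where the size of a fold depends on the background correction. The call was lost without mutant array 3, control array 1, control array 3 or control array 4, where the limma adjusted p was 0.0649, 0.0634, 0.0762 and 0.0803, with the spike-in set as a covariate (0.0552), without mutant arrays 1 and 4 (0.0669), with no filter (0.0528) and at a threshold of 0.01. The direction held in all 22 alternatives run.

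The promoter window of Col15a1 is shown because it is the member that passed: chr4:47207762-47208061 on the plus strand (RefSeq, GRCm38.p6), with capitals marking its 8 CpG dinucleotides, near the median of 7 over all windows.
Col15a1: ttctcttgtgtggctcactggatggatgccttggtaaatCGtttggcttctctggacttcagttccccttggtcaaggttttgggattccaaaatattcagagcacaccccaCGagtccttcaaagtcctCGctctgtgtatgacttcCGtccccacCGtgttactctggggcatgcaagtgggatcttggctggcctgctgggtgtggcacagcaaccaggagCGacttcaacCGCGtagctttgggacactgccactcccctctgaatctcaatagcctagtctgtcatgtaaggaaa
Its relative Col18a1 read 10.10, 10.36, 10.26 and 10.05 in the mutants and 10.45, 10.52, 10.23 and 10.37 in the controls. Control array 3 lay within the mutant range. The difference was -0.20 (95% interval -0.44 to 0.04, limma adjusted p = 0.318), and a test of whether Col15a1 fell more than Col18a1 was not made.

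Sparc is a collagen-binding glycoprotein of vessels, and Smoc2 is a related matricellular protein. Sparc read 14.75, 14.69, 14.80 and 14.28 in the mutants and 14.67, 14.53, 14.38 and 14.44 in the controls. Mutant array 4 was the lowest of the 8 arrays and mutant arrays 1, 2 and 3 the highest. The lowest shallow spike-in array read 14.67 and the highest steep one 14.53. The difference was 0.12 (95% interval -0.18 to 0.43, limma adjusted p = 0.622) and turned to -0.05 with the spike-in set as a covariate. With array weights it was 0.30 and passed (limma adjusted p = 0.0428). The second tested probe set of Sparc gave -0.204 with overlapping groups. Smoc2 read 6.30, 7.30, 7.22 and 7.13 in the mutants and 7.03, 6.62, 7.12 and 7.13 in the controls. Mutant array 1 stood apart at the low end. The difference was 0.01 (95% interval -0.52 to 0.54, limma adjusted p = 0.986).

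Among the integrin alpha subunits none of 7 passed, and 6 of 7 differences lay below 0 (median -0.20), against 69.1% of all tested genes. Itga6, which pairs with beta1 to bind laminin on endothelial cells, read 10.20, 10.61, 10.45 and 10.34 in the mutants and 10.86, 10.72, 10.76 and 10.85 in the controls. No mutant array reached the lowest control. The means were 10.40 ± 0.18 and 10.80 ± 0.07 (SD, n = 4 each), with a difference of -0.40 (SE 0.104, 95% interval -0.64 to -0.16, limma adjusted p = 0.0759). It was -0.44 within the shallow spike-in arrays and -0.44 within the steep ones. Its second probe set gave -0.28 with overlapping groups. Without mutant array 2, the limma adjusted p of Itga6 was 0.0454, and over its 23 alternatives it ran from 0.00632 to 0.237. Beside Itga6, the endothelial marker mean was below the lowest control array on mutant array 4. It was within the control range on mutant arrays 1, 2 and 3. That mean includes Pecam1, which followed the spike-in set. Pecam1 read 11.09, 10.96, 10.99 and 9.09 on mutant arrays 1 to 4 and 11.27, 9.56, 9.29 and 9.53 on control arrays 1 to 4. Differences lay below 0 in 11 of the 12 endothelial markers. A mean without Pecam1 was not made, and the part of endothelial content in the Itga6 difference was not tested.

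Itga4, an alpha subunit that binds fibronectin and VCAM1, read 8.21, 9.04, 8.65 and 8.42 in the mutants and 9.00, 8.95, 9.00 and 9.07 in the controls. Mutant array 2 lay in the control range and the others below it. The difference was -0.43 (95% interval -0.81 to -0.05, limma adjusted p = 0.196). It passed without mutant array 2 (-0.58, limma adjusted p = 0.0454) and with array weights (-0.38, limma adjusted p = 0.024), and in no other of its 23 alternatives. The other tested probe sets of Itga4 gave -0.145 and -0.079, both with overlapping groups. Itgav, the alpha subunit of the RGD-binding integrins, read 9.84, 10.86, 10.52 and 10.63 in the mutants and 10.34, 10.40, 10.68 and 10.56 in the controls. Mutant arrays 1 and 2 were the lowest and highest of the 8. The difference was -0.03 (95% interval -0.51 to 0.44, limma adjusted p = 0.946). The collagen receptor subunit Itga1 gave -0.20 (95% interval -0.48 to 0.08), the laminin-binding Itga3 -0.29 (95% interval -0.69 to 0.12), the fibronectin receptor subunit Itga5 -0.17 (95% interval -0.54 to 0.20) and Itga8 0.03 (95% interval -0.37 to 0.44).

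Itgb1, the beta subunit shared by most matrix receptors, read 11.69, 11.75, 11.64 and 11.01 in the mutants and 11.69, 11.36, 11.26 and 11.22 in the controls. The values above 11.6 were the 4 shallow spike-in arrays, 3 mutants and 1 control. The genotype difference was 0.14 (95% interval -0.28 to 0.56, limma adjusted p = 0.703) and became -0.13 with the spike-in set in the fit. Itgb5 read 9.37, 9.80, 9.53 and 9.92 in the mutants and 9.12, 9.50, 9.54 and 9.54 in the controls. Mutant arrays 2 and 4 lay above all controls. The difference was 0.23 (95% interval -0.12 to 0.58, limma adjusted p = 0.417). Itgb8, which pairs with alphav and is known in brain from radial glia and astrocytes, gave -0.08 (95% interval -0.92 to 0.76) and was not resolved. Itgb3 was under the filter on all 8 arrays, with values of 2.23 to 2.46.

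Dag1 read 10.95, 11.46, 11.29 and 11.40 in the mutants and 11.39, 11.56, 11.52 and 11.40 in the controls. Mutant arrays 2 and 4 overlapped the controls. The difference was -0.19 (95% interval -0.47 to 0.09, limma adjusted p = 0.406), and all 4 of its tested probe sets had differences below 0. Bcam, a laminin alpha5 receptor, read 2.19 to 2.20 on 7 arrays and 4.24 on control array 1, and was not tested.

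Some member probe sets moved with the spike-in set. With genotype in the fit, the shallow arrays differed from the steep ones at a limma adjusted p under 0.05 in 5 of 59 tested member probe sets (8.47%), against 5.33% of all tested probe sets. They belonged to Itgb1 (0.90 and 0.55 higher on the shallow arrays, adjusted p = 0.00605 and 0.0272), Lamb1 (1.16, adjusted p = 0.00961), Itga4 (0.83, adjusted p = 0.0286) and Col4a1 (0.60, adjusted p = 0.0438). Except for Itgb1 at 0.55, these are not the probe sets chosen to represent its gene. By the chosen probe sets and adjusted over genes, 0 of 30 members differed between the sets (limma, 1.28% of all genes). Pooled over the sets, the genotype difference lay below 0 in 17 of 30 members (56.7%), against 69.1% of all tested genes. Within the sets, it lay below 0 in both for 15 members, above 0 in both for 5 and on opposite sides for 10. No such count was made over all genes. Each set has a single array of 1 genotype, so these differences carry no test. Among those of opposite sign, Col4a5 gave -0.27 within the shallow arrays and 0.59 within the steep ones, Itgb8 -0.21 and 0.42, Lama4 0.11 and -0.06, Sparc 0.07 and -0.17 and Itgb1 0.01 and -0.28. In 3 members the pooled sign was the opposite of that within both sets. Lama5, at 0.02 pooled, gave -1.12 and -0.20, and -0.66 with the set in the fit. Col4a1, at 0.02 pooled, gave -0.04 and -0.09, and Itgav, at -0.03 pooled, gave 0.06 and 0.09.

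**Figure D3:**
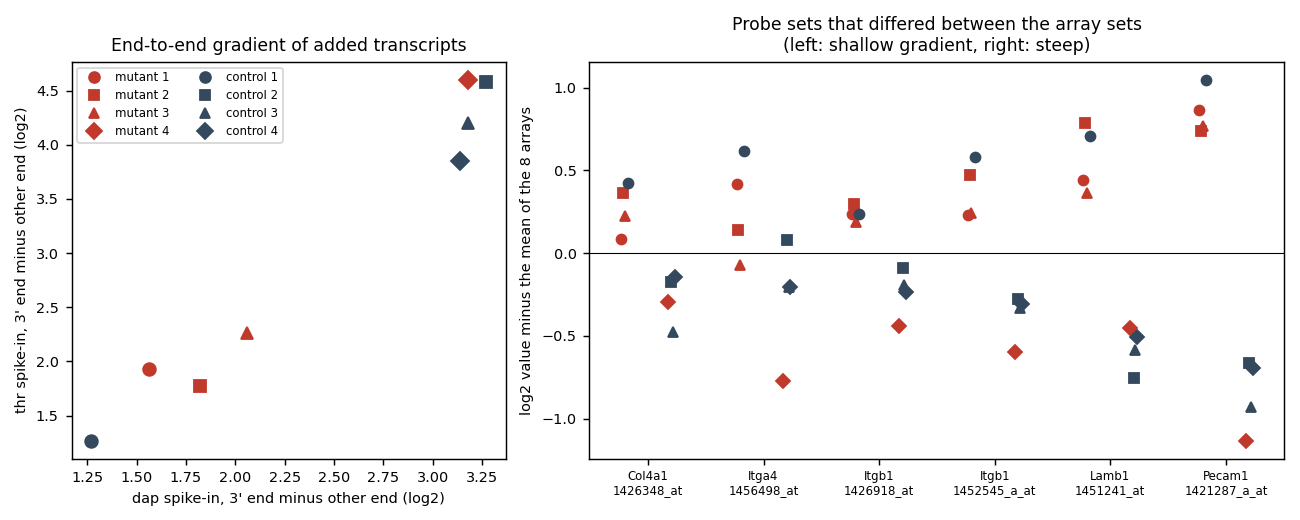
Left, the log2 drop from the 3′ to the other end of the dap and thr spike-in transcripts on the 8 arrays. Right, log2 values, minus the mean of the 8 arrays, of the 5 member probe sets and of Pecam1 that differed between the sets: the 4 shallow arrays sit above the 4 steep ones except in Itga4, where the sets overlap.

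Subunits that bind each other were compared across the 8 arrays in 8 pairs, chosen with the values known, and 3 reached an adjusted p under 0.05 by Pearson's r. Itgav and Itgb8, which form an integrin heterodimer, had r 0.95 (exact permutation p = 0.00174, adjusted 0.0125) and rho 0.95 (exact permutation p = 0.00114, adjusted 0.00913). Without mutant arrays 1 and 2, the farthest from the Itgav median, r was 0.82, and with genotype and spike-in set fitted out of both genes it was 0.95. Both genes were lowest on mutant array 1 and highest on mutant array 2, and the astrocyte markers too were lowest on mutant array 1, at -0.94 from their mean over the arrays; their part in the relation was not tested. Nid1 and Lamc1 had r 0.90 (exact permutation p = 0.0131, adjusted 0.0351) and rho 0.74 (exact permutation p = 0.0458, adjusted 0.0917), but the relation rests on mutant arrays 2 and 3, without which r was 0.31; over all 8 arrays with genotype and set fitted out it was 0.90. Of the other pairs, Lama4 and Lamc1 gave 0.78, Itgav and Itgb5 0.62, Lamb1 and Lamc1 0.38, Itga1 and Itgb1 0.10 and Lama4 and Lamb1 -0.13, none past the adjusted threshold by r. With genotype and set fitted out these values were 0.83, 0.92, 0.86, 0.34 and 0.48 in the same order, with no test. They differed most from the raw values for Lamb1 with Lamc1 and Lama4 with Lamb1. Without the 2 arrays farthest from the first gene's median, r was -0.36, 0.73, 0.09, 0.86 and -0.62 in that order. The raw relation of Lama4 with Lamc1 thus rests on mutant arrays 2 and 3. By rho, Itgav and Itgb5 gave 0.86 (exact permutation, adjusted p = 0.0429). All arrays share a normalization, and the genotypes and spike-in sets are pooled in these values.

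**Figure D4:**
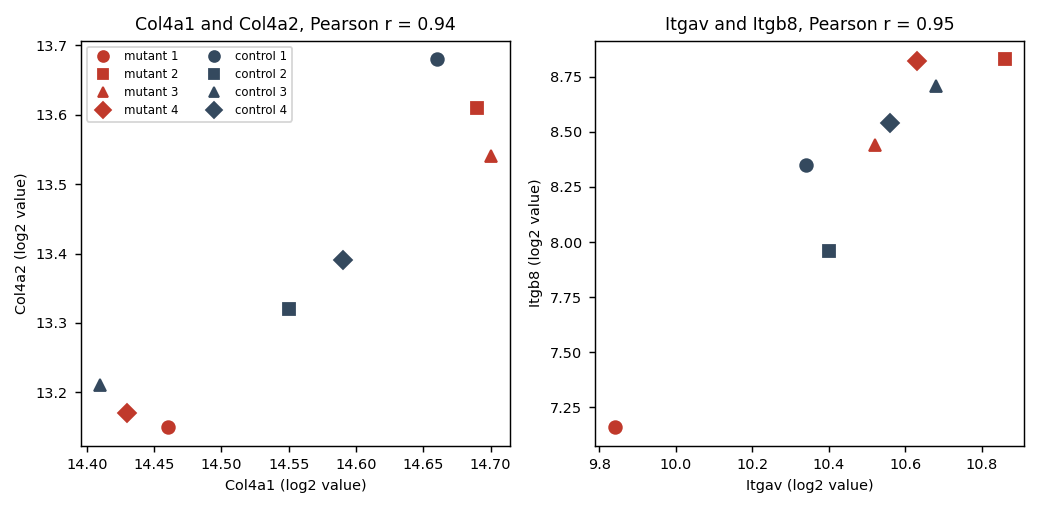
Log2 values of partner genes against each other, 1 point per array, with the genotypes in different colours. Col4a1 rises with Col4a2 (r 0.94) and Itgav with Itgb8 (r 0.95) over the 8 arrays.

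Of the 32 members, 24 have a RefSeq promoter window (28 windows in all). The sequence GGGCGG, the core of a GC box, was present on either strand in 21 of 28 member windows (75%), against 35.7% of 32851 windows. Most member windows hold more CpG than the median of 7 over all windows, and the comparison was not matched for this. The 28 windows are not all separate: those of Col4a1 and Col4a2 share 78 bases, and those of Dag1 overlap each other. CCAAT was present in 35.7% of member windows and 37.4% of all. The interferon-response core, GAAA repeated after any 2 bases, was present in 3.57% and 3.44%, and TTCNNNGAA, the STAT core, in 3.57% and 8.3%. No window was read from a binding experiment, and the window of Col15a1 holds none of these letters.

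A few genes of related function outside the membership passed; over all tested genes 1.92% passed lower and 2.66% higher, and the counts below are too small to set these lists apart from that. Among 31 tested genes of other basement membrane and pericellular matrix, 2 fell: Npnt (nephronectin, the ligand of alpha8 beta1 integrin), which read 9.59 to 9.94 in the mutants and 10.14 to 10.67 in the controls (-0.70, SE 0.135, limma adjusted p = 0.0241), and Tinagl1, a laminin-binding matrix protein (-0.63, limma adjusted p = 0.0483). Among 26 genes of matrix assembly and turnover, 2 fell: Reck, a membrane inhibitor of metalloproteinases (-0.71, SE 0.129, limma adjusted p = 0.0188), and Pxdn, the peroxidase that crosslinks collagen IV (-0.47, SE 0.101, limma adjusted p = 0.0376). Among 16 genes of the dystroglycan complex 1 fell, Dmd (dystrophin; -0.54, SE 0.115, limma adjusted p = 0.0362). Among 28 adhesion adaptors 2 rose: Fermt3, the kindlin of blood cells (1.12, SE 0.157, limma adjusted p = 0.00472), and the tetraspanin Cd9 (0.36, SE 0.079, limma adjusted p = 0.0409). Of 22 or 23 alternatives run for each, the call was lost in 1 for Fermt3, 5 for Reck, 12 for Npnt, 15 for Pxdn, 16 for Tinagl1, 16 for Dmd and 17 for Cd9. The microglia markers named above rose on the same arrays as Fermt3; their part in it was not tested.

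Among 5 other tested integrin subunits none passed. Itga10 gave -0.55 (limma adjusted p = 0.247), and the leukocyte subunit Itgb2 gave 0.60 with groups that did not overlap (limma adjusted p = 0.166). Of the 7 passing genes in these lists, 5 were lower in the mutants. The list medians were -0.12, -0.04, -0.25, -0.11 and -0.11 for the matrix genes, the assembly enzymes, the other integrins, the adaptors and the dystroglycan complex, beside -0.11 over all genes.

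**Figure D5:**
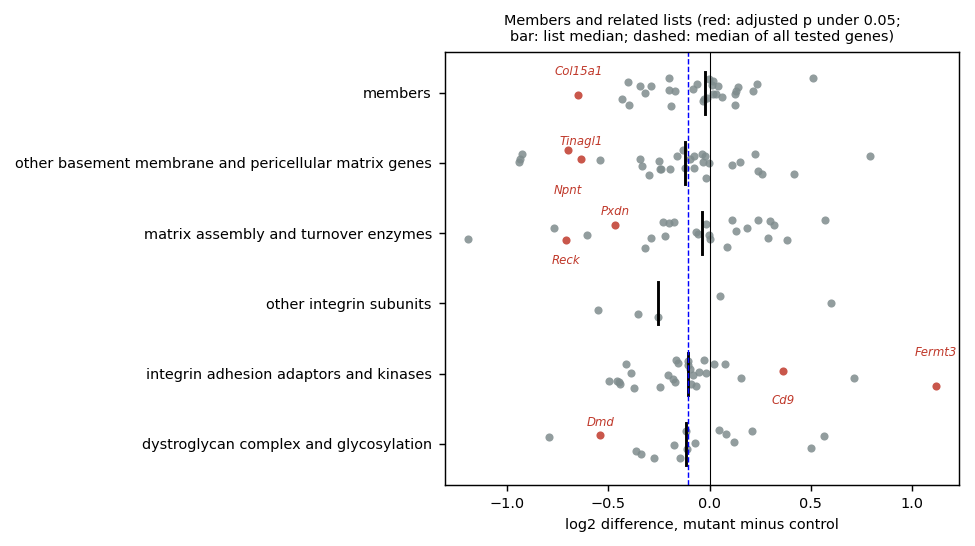
Log2 differences, mutant minus control, of the tested genes of the members and the related lists, 1 point per gene, with genes that passed a limma adjusted p of 0.05 in red, a black bar at each list's median and a dashed line at the median of all tested genes. Fermt3 lies highest of the marked genes, at 1.12, and Reck lowest, at -0.71.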

How the data were processed

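Gene expression was measured on 8 arrays, 4 per genotype; groups come from the labels. The deposited values are log2 expression per probe set, which the authors computed using GCRMA (the submitters' processing notes name it); its version is not given in the sources used here. The log2 scale was read from the values (2.18 to 16.49). GCRMA subtracts a sequence-based background and normalizes by quantiles, which leaves dim probe sets at a floor. Arrays have no depth, and the precision is limited by having 4 of them per group.

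Each of 18194 genes was represented by its probe set with the highest mean; 11446 above log2 4 on at least 4 arrays were fitted with limma 3.58.1 (R 4.3.3, lmFit and eBayes, two-sided), with Benjamini-Hochberg adjustment over all of them and a threshold of 0.05. The fitting code was tested on simulated data. The members, lists and pairs were chosen with earlier results of these data known.

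Members named with values on every array are those that passed, those whose groups did not overlap and the 2 brightest of each role; Lama5 and Itga4 were added after their values were seen. From each related list the passing genes are named, up to 4, or the 2 brightest.

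Replicate numbers gave deviations that correlated at -0.08, -0.48, -0.20 and 0.30, so the arrays were not taken as paired. Alternatives covered filter, normalization, probe set choice, array weights, Y-linked signal, thresholds and each array left out. The spike-in set as a covariate, and mutant arrays 1 and 4 left out together, were added after seeing the data.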

Additional observations from a re-analysis of the deposited data

Results flagged for a closer look

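In each group of 4 arrays, each tested member's highest and lowest value was compared with the others by Dixon's criterion for groups of 4. This marked 7 of 60 groups (11.7%), against 9.57% of the groups over all tested genes, so the members are not shown to stand apart; chance marks about 1 in 20 groups of independent normal values, and the members share the same 8 arrays.

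Lama5, the laminin alpha5 chain, read 7.20 on control array 1, with the other controls at 5.31 to 5.42. Itgb5 read 9.12 on the same array, below the other controls at 9.50 to 9.54. Control array 1 is the control with a shallow spike-in gradient. Smoc2 read 6.30 on mutant array 1, against 7.13 to 7.30 on the other mutants, and Itga8 read 8.02 there, against 8.59 to 8.64. The astrocyte and fibroblast marker means were also lowest on mutant array 1. Itgb1 read 11.01 on mutant array 4, against 11.64 to 11.75, and this is the mutant array with a steep spike-in gradient. Hspg2 read 8.09 on mutant array 2, against 7.74 to 7.77. Itga5 read 4.76 on mutant array 3, against 4.79 on the others, a gap of no size. The causes were not tested.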

How the results depend on the processing

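Of the members, 1 was lower in the mutants; none was with no filter, with a filter at 6 (which removes Col15a1), at an adjusted p of 0.01, with the spike-in set as a covariate or without mutant arrays 1 and 4 (0 each). Array weights ran from 0.36 on mutant array 1 to 6.60 on mutant array 3. They gave 4 of 30 members higher (Lamc1, Lamc3, Nid1 and Sparc) and 6 lower (Lama1, Lama2, Hspg2, Col15a1, Itga4 and Itga6). Over all 11446 tested genes they gave 895 higher and 2263 lower. Leaving out each array in turn gave 0 to 3 lower members (3 without mutant array 2, 0 without mutant array 3 or control arrays 1, 3 or 4) and 0 higher. Over all genes these counts were 231 to 342 higher and 62 to 266 lower (main 304 and 220). Lower genes numbered 135 with no filter, 142 with the Y-linked covariate, 37 at an adjusted p of 0.01, 120 at 1.5-fold and 65 without mutant arrays 1 and 4.

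With the replicate number as a block, 1 member was lower (Col15a1, adjusted p = 0.0338, limma), 1 related gene was higher, 2 related genes were lower and 38 genes in all were lower.

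Related genes, 2 higher and 5 lower, ran from 1 to 3 and from 0 to 5 as each array was left out; 1 was lower without mutant array 1, mutant array 3 or control array 1, 2 without control array 2, 3 without mutant array 2, 0 without control arrays 3 or 4, and 1 was higher without mutant arrays 2 or 3 or control arrays 1, 3 or 4. Higher genes numbered 4 after a second quantile normalization, 15 with array weights and 1 with centred arrays, probe sets without suffix, an adjusted p of 0.01, 1.5-fold, the spike-in set or mutant arrays 1 and 4 left out. Lower genes numbered 1 with no filter or without mutant arrays 1 and 4, 3 with probe sets without suffix, every probe set or 1.5-fold, 2 with the Y-linked covariate, 21 with array weights and 0 at an adjusted p of 0.01. Fermt3 fell to 0.65 as a mean of its probe sets and no longer passed there.

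Some signs turned, in Nid1 and Itgb1 also from main differences of 0.21 and 0.14. Lama5 gave -0.01 with centred arrays, -0.04 as a mean of probe sets and -0.66 with the spike-in set, and ran from -0.27 to 0.47 as each array was left out. Col4a1 gave -0.02 after the second quantile normalization, -0.01 with centred arrays and -0.06 with the spike-in set. Smoc2 gave -0.02 with centred arrays. The mean of probe sets gave Lama4 -0.06, Lamb1 0.13, Nid1 -0.08, Sparc -0.02 and Itgav 0.08; probe sets without suffix gave Lamb1 0.02. The Y-linked covariate gave Col4a2 0.04, Agrn 0.01 and Itgav 0.01, and array weights gave Col4a2 0.14 and Agrn 0.03. The spike-in set gave Sparc -0.05, Itgav 0.07 and Itgb1 -0.13. Without mutant arrays 1 and 4, Col4a2 was 0.18, Agrn 0.09 and Itgav 0.19. As each array was left out, Col4a1 ran from -0.03 to 0.06, Col4a2 from -0.11 to 0.06, Agrn from -0.07 to 0.03, Itgav from -0.16 to 0.18 and Smoc2 from -0.11 to 0.24. The cause was not tested. Signal over background limits Col15a1, Lamc3 and Itga5, which lie little above the filter of 4. It also limits Itgb3 and Bcam, which are near the floor of 2.18, Bcam on all arrays but control array 1.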

Other observations

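Y-linked probe sets read 8.02 to 8.22 on mutant arrays 1, 3 and 4 and control arrays 2 and 3 (mean of 3 genes) and 2.18 to 2.22 on the other 3 arrays. Endothelial Pecam1, the antigen used for the pull-down, followed the spike-in set, at 11.09, 10.96 and 10.99 on mutant arrays 1 to 3 and 11.27 on control array 1, against 9.09 on mutant array 4 and 9.56, 9.29 and 9.53 on control arrays 2 to 4. The difference between the sets was 1.87 (limma adjusted p = 0.00193), with a genotype difference of -0.31 in the same fit (limma adjusted p = 0.162), -0.26 within the shallow arrays and -0.37 within the steep ones. Without the set in the fit the genotype difference had the other sign, 0.62 (limma adjusted p = 0.561).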
